A study of Homo sapiens with 4 samples.

Results

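The 3p21-p22 zinc finger genes are 8 neighbouring protein-coding genes in 1 window of 400 kb on the short arm of human chromosome 3 (hg19): ZNF445, ZNF852, ZKSCAN7, ZNF660, ZNF197, ZNF35, ZNF502 and ZNF501. They were chosen by name and position out of 20163 protein-coding genes, and all 8 were found inside the window. Each was described by how much of its body lay in regions of histone H4 trimethylated at lysine 20 (H4K20me3), from chromatin immunoprecipitation followed by sequencing (ChIP-seq). The cells were IMR90, normal lung fibroblasts of human origin that divide only for a limited time in culture, grown under 3% oxygen with no gene introduced and no drug given. Proliferating cells (PRO) were taken at population doubling 32, and cells that had stopped dividing through replicative senescence (RS) at population doubling 86. Both states were cultures of 1 line, so population doubling and growth state cannot be told apart. Each state was profiled with 2 antibodies, from Millipore and from Cell Signaling Technology, which gave 4 samples. The study asked where the mark lies in senescent cells relative to proliferating ones.

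3 lists of regions were used. The PRO and RS lists each hold the domains found with both antibodies, so each state is 1 merged list with no replicate. The DiffBind list holds regions with a difference in enrichment between PRO and RS under a false discovery rate, with no direction given. The lists hold positions only, with no height, depth or error. Every value below is therefore a description of 1 list, and no difference between PRO and RS could be set against a replicate spread or tested.

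C2H2 zinc finger proteins bind DNA through an array of short fingers, each of which folds around a zinc ion held by a pair of cysteines and a pair of histidines, and the whole array is usually coded in 1 large exon near the 3′ end of the gene. Many of them carry a KRAB domain, which calls in TRIM28 and the H3K9 methyltransferase SETDB1, and act as repressors, often of transposable elements. Their genes stand in tandem clusters that arose by duplication, and the 3′ exons of such genes are a known site of H3K9me3 in many cell types. H4K20me3 is laid down mainly by SUV420H2 (KMT5C) and SUV420H1 (KMT5B), commonly on chromatin that already carries H3K9me3, and is known from pericentromeric and telomeric heterochromatin.

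The 8 genes had the array their names promise. Counted by the pattern of a C2H2 finger, the proteins held from 9 fingers in ZNF501 to 22 in ZNF197, with 14 in ZNF445, 13 in ZNF852, 13 in ZKSCAN7, 10 in ZNF660, 11 in ZNF35 and 14 in ZNF502. In 7 of the genes the fingers were coded in the last exon of the representative transcript. In ZNF852 they were coded in exon 4 of 5. ZNF445 (chr3:44473197-44519162) and ZNF852 (chr3:44533372-44552128) lie on the minus strand. ZKSCAN7 (chr3:44596685-44635665), ZNF660 (chr3:44619715-44641186), ZNF197 (chr3:44626380-44689963), ZNF35 (chr3:44690224-44702283), ZNF502 (chr3:44754135-44765323) and ZNF501 (chr3:44771088-44778575) lie on the plus strand. The annotated bodies of ZKSCAN7, ZNF660 and ZNF197 overlap one another, so an RS peak there can count for more than 1 of them. Their representative transcripts do not overlap.

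In RS cells, H4K20me3 peaks lay on all 8 genes and covered 12.7% of their bodies. In PRO cells, peaks lay on 4 of the 8 and covered 0.794%. DiffBind regions lay on 3 of the 8, ZNF852, ZNF502 and ZNF501, and covered 6.25%. Over all protein-coding genes, 3.97% were overlapped by a PRO peak, 21% by an RS peak and 18.3% by a DiffBind region. The share of the genes with a DiffBind region, 37.5%, was thus nearer to its background than the share with a PRO peak, 50%, or with an RS peak, 100%. Without regions that hold a window of 75 bases found more than once in the genome, RS coverage was 6.00% and DiffBind coverage 1.48%. The RS count includes ZNF445, where the overlap was 1 base. Gene length was not adjusted for, and the bodies ran from 7488 bp in ZNF501 to 63584 bp in ZNF197.

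**Figure D1:**
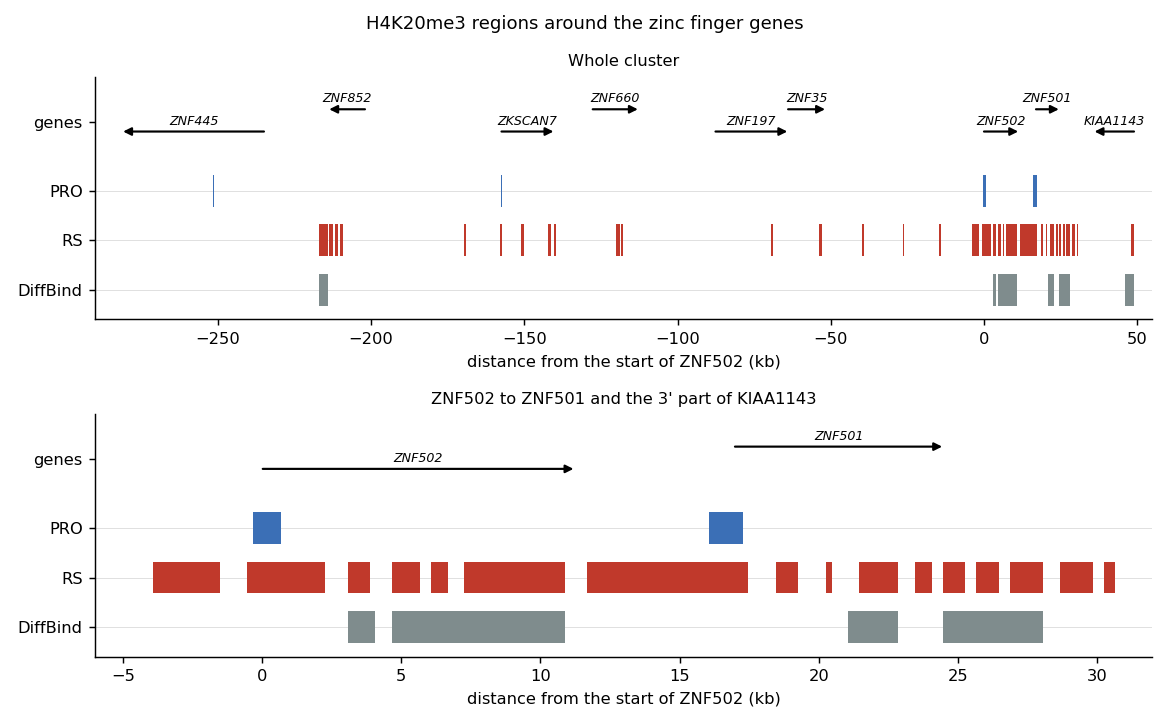
The horizontal axis is distance from the start of ZNF502 in kb. Arrows are representative transcripts in the direction of transcription, and blocks are PRO, RS and DiffBind regions. The lower panel enlarges the ZNF502 and ZNF501 stretch, where RS peaks were densest and the widest PRO peaks lay on the starts.

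The 8 genes fell into a dense end and a remainder that was sparser but uneven. From the start of ZNF502 to the end of ZNF501, a stretch of 24.4 kb, RS peaks covered 69.9% of the bases, DiffBind regions 36.8% and PRO peaks 7.64%. From the end of ZNF445 to the end of ZNF35, a stretch of 229 kb, the same values were 5.77%, 1.22% and 0.350%. The map of regions against distance from ZNF502 shows this as a near-continuous row of RS blocks over the last genes and more separate blocks over the earlier ones. Among the earlier genes, ZNF852 had 33.1% of its body in RS peaks, with a peak of 2801 bp. The 229 kb also include DNA between genes.

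**Figure D2:**
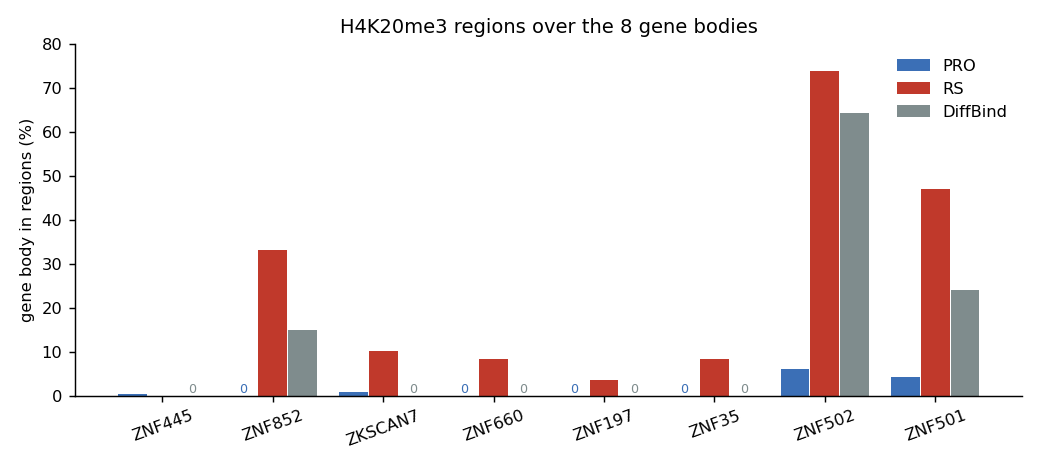
The vertical axis is the percent of each gene body that lay in PRO (blue), RS (red) and DiffBind (grey) regions, with 1 list per group and so no error bars, and a 0 marks genes with no region of that list. ZNF502 stood highest in all 3 lists, and ZNF445 was the only gene with more PRO than RS bases.

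ZNF502 had the highest RS coverage, at 73.9% of its body in 5 peaks, and 64.4% of the body lay in DiffBind regions and 5.96% in the PRO peak. ZNF501, the last gene of the row, followed with 47.0% in RS peaks, 24.1% in DiffBind regions and 4.19% in the PRO peak. ZNF852 had 33.1% in RS peaks, 14.9% in a DiffBind region and 0% in PRO peaks. These 3 genes held all of the DiffBind bases on the cluster.

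ZKSCAN7, whose name records a KRAB and a SCAN domain beside its fingers, had 10.1% in RS peaks, 0.813% in a PRO peak and 0% in DiffBind regions. For ZNF660 the RS coverage was 8.39% and for ZNF35 it was 8.30%, both with no PRO or DiffBind base. These last values differ by less than 1 SICER window would move them, so their order carries no weight. ZNF197, the longest body, had 3.46% in RS peaks and none in the other lists. Counted on the representative transcript alone, RS coverage was 12.5% for ZKSCAN7, 12.2% for ZNF660 and 1.71% for ZNF197. For ZNF852 it was 28.6%, and the DiffBind coverage of that transcript was 0%, because its DiffBind region lay beyond the 3′ end.

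ZNF445, a protein known for protecting imprinted DNA methylation, was the exception. Its single RS peak was 1 base long, at position 44489001, a length that can arise when domains that start on a grid of 200 bp and end 1 base past it are intersected. Its PRO peak of 201 bp (chr3:44502601-44502801) lay in an intron and overlapped no RS peak. ZNF445 was thus the 1 gene of the 8 with more bases in PRO peaks than in RS peaks, 201 against 1.

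The PRO peaks on the cluster marked gene starts. Of the 4 PRO peaks on the 8 genes, 3 covered the start of a representative transcript: that of ZKSCAN7 (chr3:44596401-44597001, 601 bp), that of ZNF502 (chr3:44753801-44754801, 1001 bp) and that of ZNF501 (chr3:44770201-44771401, 1201 bp). Over all protein-coding genes, 0.764% had their start inside a PRO peak. In RS cells the starts of the same 3 genes lay in peaks, against 1.61% of all protein-coding genes. All of the PRO bases at ZNF502 and ZNF501 lay in RS peaks as well, and 401 of the 601 bases at ZKSCAN7 did. None of the 3 PRO peaks at starts touched a DiffBind region, and 0 of the 8 starts lay in one, against 1.68% of all protein-coding genes, so that the count of 0 is near the background.

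The 100 bases before these 3 starts are shown because every base of them lay inside a PRO peak and inside an RS peak, and those of ZNF445, ZNF660, ZNF197 and ZNF35 because they lay in no peak of either list. Capitals mark TTCCTAGAGA, the longest word shared by at least 5 of the 7 promoters that RefSeq gave for the cluster. The sequences come from the RefSeq promoter table (GRCh38.p14), were found again by exact match in GRCh37, and carry hg19 positions.
ZNF502, chr3:44754052-44754151, plus strand: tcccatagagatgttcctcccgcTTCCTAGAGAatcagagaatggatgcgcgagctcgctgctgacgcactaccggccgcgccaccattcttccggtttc
ZNF501, chr3:44771027-44771126, plus strand: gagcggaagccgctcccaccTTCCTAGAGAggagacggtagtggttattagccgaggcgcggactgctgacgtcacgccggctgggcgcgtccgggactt
ZKSCAN7, chr3:44596585-44596684, plus strand: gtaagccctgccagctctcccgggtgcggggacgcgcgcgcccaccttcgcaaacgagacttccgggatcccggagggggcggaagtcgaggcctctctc
ZNF445, chr3:44519163-44519262, minus strand: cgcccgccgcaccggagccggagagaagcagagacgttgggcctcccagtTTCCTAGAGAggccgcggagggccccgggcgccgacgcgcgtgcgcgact
ZNF660, chr3:44626356-44626455, plus strand: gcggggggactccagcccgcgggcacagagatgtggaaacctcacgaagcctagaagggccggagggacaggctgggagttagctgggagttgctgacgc
ZNF197, chr3:44666428-44666527, plus strand: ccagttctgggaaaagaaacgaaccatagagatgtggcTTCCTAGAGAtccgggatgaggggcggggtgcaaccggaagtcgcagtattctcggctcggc
ZNF35, chr3:44690124-44690223, plus strand: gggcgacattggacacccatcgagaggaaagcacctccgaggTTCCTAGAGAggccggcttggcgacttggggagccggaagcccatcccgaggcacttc
The word stood in 5 of the 7 promoters of 300 bases, in each on the coding strand, and began 50 to 80 bases before the start. Both strands were searched, and it was found in 24 of 27305 promoters in the table, or 0.0879%. It was noticed in these promoters, so its frequency among them is how it was chosen. At ZNF502 and ZNF501 all 10 bases of the word lay in a PRO and an RS peak, and at ZNF445, ZNF197 and ZNF35 none did. ZKSCAN7 had its start in a peak and lacked the word, as did ZNF660 with no peak at its start. Holding the word and lying in a peak therefore did not go together among the 7 sequences. Elsewhere, 8 other protein-coding genes held it, of which 0 had their start in a PRO peak and 1 in an RS peak. ZNF852 had no entry in the table.

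RS peaks covered a larger share of the DNA that codes the fingers than of the rest of the bodies. In RS cells 63.3% of the finger-coding DNA of the 8 genes, 5828 of 9207 bases, lay in peaks, against 10.1% of the rest of their bodies. The value was 16.3% for other coding DNA, 10.6% for untranslated exons and 10.6% for introns. No finger-coding base of the 8 genes lay in a PRO peak. For DiffBind regions the value was 20.5% for finger-coding DNA and 5.52% for the rest of the bodies. Of the 23918 RS bases in the bodies, 18090 lay outside finger-coding DNA.

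By gene, the arrays of ZNF852, ZNF502 and ZNF501 lay wholly in RS peaks, at 100% of finger-coding bases. In ZNF35 the value was 97.1%, where a single peak of 1001 bp (chr3:44700401-44701401) was the only RS peak of the gene. In ZKSCAN7 it was 95.7%, in ZNF660 68.7% and in ZNF197 21.9%, from a peak of 401 bp inside the longest array. In ZNF445, with 14 fingers, it was 0.0615%, which is the 1-base peak. The array was thus more covered than the rest of the gene in all 8, in ZNF445 by a single base.

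**Figure D3:**
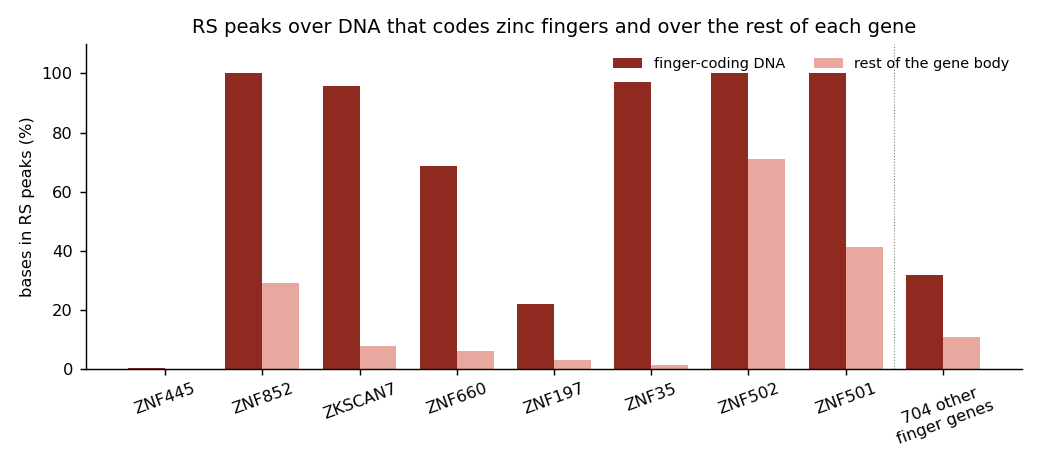
The vertical axis is the percent of bases in RS peaks, for finger-coding DNA (dark) and for the rest of the gene body (light), in each of the 8 genes and pooled over 704 other genes with at least 3 fingers. The dark bar reaches over 95% in 5 of the 8 genes, and in the other genes pooled it stands at 31.7% against 10.7% for the light bar.

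The finger-coding DNA was overlapped by an RS peak in 8 of 8 genes, by a DiffBind region in 2 of 8, ZNF502 and ZNF501, and by a PRO peak in 0 of 8. Over the 712 protein-coding genes with at least 3 fingers these shares were 38.5%, 32% and 2.81%. The 8 with an RS peak include ZNF445, where the overlap was 1 base. At least 95% of the array lay in RS peaks in 5 of the 8 genes, or 62.5%, and in 138 of 704 other finger genes, or 19.6%. In those other genes RS peaks covered 31.7% of finger-coding DNA and 10.7% of the rest, and of the 393 with any RS peak 246 had the higher coverage on the array. Of these 704 genes, 512 carry a zinc finger symbol and are the closer comparison. At least 95% of the array lay in RS peaks in 133 of those 512. There RS peaks covered 40.3% of finger-coding DNA and 18.2% of the rest. Of the 341 with any RS peak, 224 had the higher coverage on the array. More RS coverage on the array than elsewhere was thus not limited to the cluster.

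Finger DNA is repetitive between related genes, and the authors' reads were short, so the closest copies within the cluster were read out. A pair of finger units is shown for ZNF852 and ZKSCAN7, which were identical over all 84 bases, and a pair for ZNF502 and ZNF501, the closest between the neighbours with DiffBind regions. Capitals mark the 6 bases that differ between ZNF502 and ZNF501.
ZNF852 finger 3, chr3:44541537-44541620, minus strand: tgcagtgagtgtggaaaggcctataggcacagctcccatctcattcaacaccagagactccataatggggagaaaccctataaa
ZKSCAN7 finger 3, chr3:44611923-44612006, plus strand: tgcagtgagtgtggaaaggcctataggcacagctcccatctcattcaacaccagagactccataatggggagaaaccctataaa
ZNF502 finger 8, chr3:44763366-44763449, plus strand: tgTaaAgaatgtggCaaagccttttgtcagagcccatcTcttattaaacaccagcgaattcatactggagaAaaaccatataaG
ZNF501 finger 4, chr3:44776235-44776318, plus strand: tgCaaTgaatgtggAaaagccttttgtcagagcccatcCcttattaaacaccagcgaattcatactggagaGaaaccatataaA
All 4 units lay wholly in RS peaks, the units of ZNF502 and ZNF501 also lay wholly in DiffBind regions, and none had a base in a PRO peak. ZNF852 and ZKSCAN7 shared 70 windows of 75 bases, with a longest shared run of 113 bases. Of the windows of 75 bases in their arrays, 7.58% in ZNF852 and 7.02% in ZKSCAN7 occurred more than once in the genome. In the arrays of the other 6 genes that share was 0%. The arrays of ZNF35, ZNF502 and ZNF501 were thus covered at 97.1 to 100% with no repeated window in them. Without every region that holds a repeated window, RS peaks still covered 40.5% of finger-coding DNA and 4.23% of the rest. How the authors' aligner placed reads from repeated windows was not tested.

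RS peaks on the 8 genes numbered 23, with a median length of 1001 bp. Of these, 3 covered a start, 8 lay on finger-coding DNA and 12 did neither. The longest was 5801 bp (chr3:44765801-44771601), ran through the gap between ZNF502 and ZNF501 and over the start of ZNF501, and 0.740% of all RS peaks were at least as long. The longest peak on an array was that of ZNF502, at 3601 bp (chr3:44761401-44765001). Of the 23 peaks, 6 overlapped a DiffBind region, or 26.1%, against 44.81% of all RS peaks. The 3 that overlapped a PRO peak, or 13.0%, were those over the starts, against 3.84% of all RS peaks. An RS peak outside the DiffBind list is not shown to be equal in PRO cells, since the list was filtered by a false discovery rate.

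**Figure D4:**
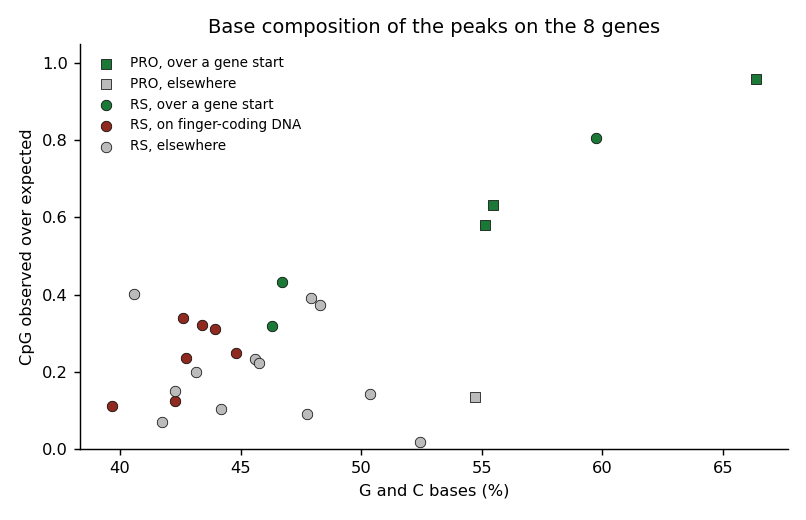
Each point is a PRO (square) or RS (circle) peak on the 8 genes, with the percent of G and C bases on the horizontal axis and the ratio of observed to expected CpG on the vertical axis. The 3 green squares, PRO peaks over a start, hold over 55% G and C, brown points on finger-coding DNA lie between 39.7% and 45% G and C, and the 1-base RS peak is not drawn.

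The 3 PRO peaks over starts held 66.4% G and C at ZKSCAN7, 55.1% at ZNF502 and 55.5% at ZNF501, with a ratio of observed to expected CpG of 0.960, 0.581 and 0.633. The 7 RS peaks of over 1 base on finger-coding DNA held 39.7% to 45% G and C, with a CpG ratio of 0.110 to 0.339. The plot of CpG ratio against G and C content shows no overlap between these sets. The RS peaks over the same starts held 59.7% G and C at ZKSCAN7, 46.7% at ZNF502 and 46.3% at ZNF501, with a CpG ratio of 0.807, 0.433 and 0.318. The ratio at ZNF501, in the longest RS peak, lay inside the range of the array peaks.

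Of the 4 DiffBind regions on the 8 genes, ZNF502 held a region of 1001 bp (chr3:44757201-44758201) and 1 of 6201 bp (chr3:44758801-44765001), which ran over its array. The region on ZNF501 was 1801 bp long (chr3:44775201-44777001) and also covered the array. The region on ZNF852, 2801 bp long (chr3:44537201-44540001), matched an RS peak base for base and held no finger-coding base. All 4 overlapped RS peaks, and none overlapped a PRO peak. Of the RS bases in the 8 bodies, 42.7% lay in DiffBind regions. Summed gene by gene, 57.3% of RS bases lay nearer the 3′ than the 5′ end of their gene. In that sum, bases where bodies overlap counted once for each gene.

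The gene bodies were compared with other zinc finger genes to show where the cluster stood. Of 558 other genes with a zinc finger symbol, an RS peak overlapped 357, or 64.0%, a DiffBind region 313, or 56.1%, and a PRO peak 165, or 29.6%. The median RS coverage of the body was 9.23% in the cluster and 11.8% in those 558 genes, so the cluster was not more covered than zinc finger genes in general by that measure. Among the 558, RS coverage lay below that of ZNF502 in 95.7%, below that of ZNF501 in 79.7% and below that of ZNF445 in 36.0%. The genes below ZNF445 were those with no RS base, and ZNF445 stood above them by its 1-base peak alone. On chromosome 19, which carries the largest zinc finger clusters, the median over 261 genes was 27.7%.

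**Figure D5:**
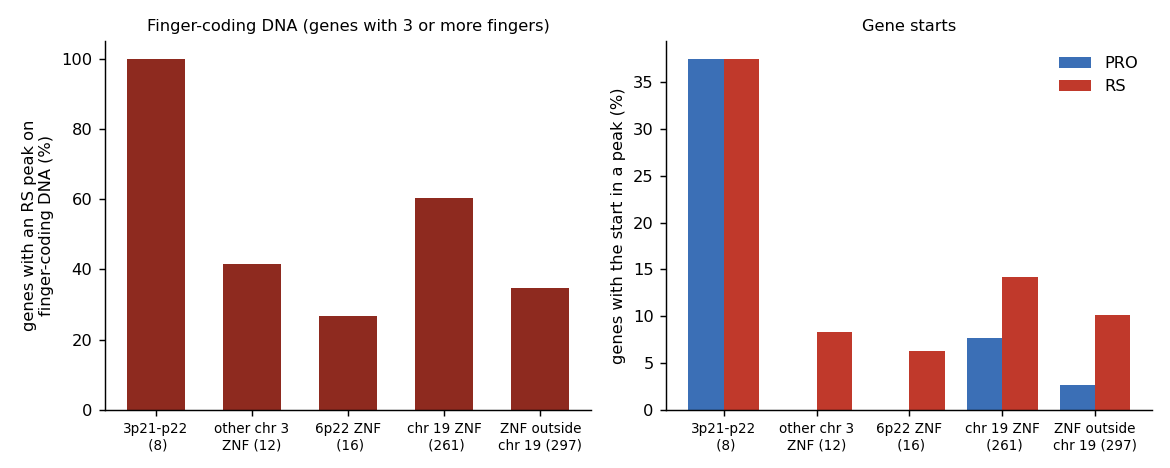
Bars are the percent of genes in each set with an RS peak on finger-coding DNA (left, genes with 3 or more fingers) and with the start of the representative transcript inside a PRO or RS peak (right), with the number of genes under each name. The cluster stands at 100% on the left, and at 37.5% for both lists on the right, over 8 genes. On the left, ZNF445 counts through an overlap of 1 base.

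The start lay in a PRO peak in 3 of 8 genes of the cluster, or 37.5%, and in 28 of 558 other zinc finger genes, or 5.02%. On chromosome 19 the count was 20 of 261, or 7.66%, and it was 0 of 12 elsewhere on chromosome 3 and 0 of 16 in the cluster at 6p22. In RS cells the start lay in a peak in 67 of the 558, or 12.0%. The array was overlapped by an RS peak in 60.4% of chromosome 19 finger genes, in 41.7% of those elsewhere on chromosome 3 and in 26.7% of those at 6p22. A DiffBind region overlapped the array in 25% of the cluster, in 40.2% of the other zinc finger genes and in 47.8% of those on chromosome 19. The 25% is near the 32% over all 712 genes with at least 3 fingers. For RS peaks the cluster stood highest, with 47.5% in the other zinc finger genes, and chromosome 19 was above those genes in both lists. DiffBind regions covered 20.5% of finger-coding DNA in the cluster and 30.3% in the 704 other finger genes. With 8 genes that are neighbours, these shares describe the cluster and were not tested.

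The coverage ended unevenly at the borders of the cluster. TCAIM, a mitochondrial protein gene before ZNF445, held no base of any list. KIAA1143, after ZNF501, held 21.1% in RS peaks, 24.9% in DiffBind regions and 0% in PRO peaks. On the representative transcript of KIAA1143 alone, RS coverage was 9.34%. The 400 kb on the side of the chromosome end had 0.200% of its bases in RS peaks, and the 400 kb on the side of the centromere had 4.40%. Within the window, DNA outside the 8 genes had 7.34% in RS peaks. Over the genome the value was 1.33%.

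Of 12 genes of the H4K20me3 and H3K9me3 machinery, RS peaks lay on 3, or 25%. This is near the 21% of all protein-coding genes. ZNF274, itself a zinc finger protein known to bring SETDB1 to the 3′ ends of other zinc finger genes, was covered over 93.5% of its length by RS peaks, with 75.8% in DiffBind regions and 25.6% in PRO peaks. SETDB1 had 1.04% in RS peaks and ATRX 0.285%. KMT5B, KMT5C, SUV39H2, TRIM28, CBX1, CBX3, CBX5 and DAXX held no base of any list, and SUV39H1 held 1.54% in DiffBind regions alone. The protein-coding genes of at least 2 kb nearest to the 8 genes pooled, by distance over the 3 coverage values, were OR4K17, at 1.17 percentage points, PCDHA8, at 1.51, and PCDHA7, at 1.76. OR4K17 is an olfactory receptor gene and the others are protocadherin genes that share most of their body.

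Over the whole series, the PRO list held 2836 regions (0.120% of the genome), the RS list 35535 (1.33%) and the DiffBind list 18711 (1.21%). Of these, 5, 33 and 5 lay in the window of 400 kb, where they covered 0.801%, 9.86% and 3.85% of the bases. The cover of the window relative to the genome was 6.68 for PRO, 7.39 for RS and 3.18 for DiffBind. Over chromosome 3 as a whole, PRO peaks covered 0.0352% of the bases and RS peaks 0.997%, so the ratio of the window to its surroundings depends on which of these is taken. Because the lists differ in number of regions, a gene without a PRO peak is not shown to lack the mark in PRO cells.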

How the data were processed

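H4K20me3 ChIP-seq of PRO and RS IMR90 cells was used, with 4 samples merged into 1 list per state. Per the labels and the study's methods, the authors used CASAVA 1.8.2, Trim Galore 0.3.0, Bowtie2 2.1.0 (hg19), Picard 1.98 and SICER 1.1 (windows of 200 bp, total histone H4 as control) and kept domains found with both antibodies. DiffBind 1.8.3 gave the third list, at a false discovery rate of 0.01. Its count model was not settled here, and fewer regions were in it than were published. The deposited files hold start and end positions in bases, with no count or score. Depth was not used here, and reads per gene were not analysed here.

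Bases of GENCODE release 44 gene bodies (GRCh37 positions) in each list were counted with Python 3.11.15, numpy 2.4.6 and pysam 0.24.0. The minimum overlap was 1 base. The representative transcript was MANE Select or, failing that, the Ensembl canonical one. Fingers were found in its translation. Windows of 75 bases were counted over the genome. Coordinates are 1-based. The overlap code was tested on simulated data. No test was made, as each state has 1 list. Named genes were the 8 genes, their neighbours in the window, the 3 of nearest coverage and machinery genes. Genes and lists were chosen with earlier results of these data known.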

Additional observations from a re-analysis of the deposited data

How the results depend on the processing

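Of 53 values of 10 results under 6 alternatives, 27 stayed within the limits set for each and 26 moved. For percents, the limits were the exact binomial 95% interval of the main value, which counts each base as independent. Neighbouring bases of a peak are not independent, so these labels only describe the size of a move. For counts of genes, the limit was a fixed ratio to the main value. Finger-coding DNA was more covered by RS peaks than the rest of the bodies under all 6 settings that gave both values. These include the main setting and leave out the minimum overlap of 10%, which gave counts of genes only. With regions of at least 1000 bp, PRO coverage was 0.520% (2 genes with a PRO peak), RS coverage 9.74%, finger-coding DNA 52.8%, the rest 7.54%, the share of RS bases nearer the 3′ than the 5′ end 63.6% and in DiffBind regions 47.9%. With 10% of the body as the minimum overlap, 0 genes had a PRO peak and 4 (50%) an RS peak, against 0.471% and 3.79% of all protein-coding genes and, for RS, 51.6% of other zinc finger genes. On representative transcripts, PRO coverage was 1.01%, RS coverage 14.2%, the rest outside fingers 10.9%, the 3′ share 68.7% and RS bases in DiffBind 36.3%. Without regions holding a repeated window of 75 bases, PRO coverage was 0.628%, RS coverage 6.00%, DiffBind coverage 1.48%, finger-coding DNA 40.5%, the rest 4.23%, the 3′ share 63.3% and RS bases in DiffBind 19.4%. With regions merged within 1000 bp, RS coverage was 17.8%, DiffBind coverage 6.57%, the rest 15.5%, the 3′ share 53.6% and RS bases in DiffBind 36.9%. With 1-base peaks dropped and every end lowered by 1 base, 7 genes had an RS peak. The length and repeat filters drop regions and merging adds bases by construction, and the cause of the other moves was not tested. Leaving out each antibody was not run, because the lists are merged. No paired analysis was possible because each state has 1 merged list. The lists hold no depth, so small or weak peaks of PRO cells cannot be judged.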

Other observations

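Some regions of the window lay on transcripts that are not protein-coding. A PRO peak of 201 bp (chr3:44727001-44727201) overlapped ZKSCAN7-AS1, a long non-coding RNA antisense to several of the genes. This peak held 72.6% G and C with a CpG ratio of 0.935. No RS peak overlapped it. An RS peak of 2401 bp (chr3:44750201-44752601) before ZNF502 lay on SOCS5P3, a pseudogene, and ended within 2 kb of the start of ZNF502.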
